A study of Drosophila melanogaster and Drosophila melanogaster x Drosophila simulans and Drosophila simulans with 6 samples.

Results

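The D. simulans genome was followed in the ovaries of hybrid females and set against the ovaries of its own species. Of the 28229 features in the deposited table, the 14256 whose identifier carries no D. melanogaster prefix were kept. Of the 6 libraries, the 2 from hybrid ovaries were compared with the 2 from D. simulans ovaries. The hybrids were F1 daughters of D. melanogaster females and of males of the D. simulans line w501. Their mothers carried Hmr2, an allele of a gene that lowers the viability of hybrids, and with this allele more of the daughters live. Each hybrid therefore carried 1 maternal D. melanogaster and 1 paternal D. simulans genome, whereas the D. simulans w501 females carried the D. simulans genome in both doses. All ovaries came from adult females within days of eclosion, and polyadenylated RNA was sequenced. Only hybrids with developed ovaries and at least several ovarioles with egg chambers were taken by the study, so the libraries do not represent hybrid females at large. The maternal line also carries In(1)AB, an inversion of the X chromosome, which the hybrids inherited and the D. simulans females did not.

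An ovariole is a string of egg chambers in which germline cells, the nurse cells and the oocyte, are enclosed by a sheet of somatic follicle cells. The germline supplies the egg with ribosomes, mRNA and the piRNAs that silence transposons. The follicle cells divide, are patterned by EGFR, JAK-STAT and Notch signals, and secrete yolk proteins and the eggshell. They also make ecdysone, the steroid hormone that paces egg chamber development.

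The hybrid libraries held 16810398 and 17101727 estimated counts, and the D. simulans libraries 12981002 and 22363396. D. simulans genes took 54.9% and 52.3% of the counts in hybrid libraries and 97.4% and 97.3% in D. simulans libraries. Wilson 95% intervals ran from 54.87% to 54.92% and from 52.27% to 52.31% in the hybrids, and they cover counting error only. In the D. melanogaster libraries, which contain no D. simulans RNA, 2.99% and 2.73% of the counts fell on D. simulans genes. A gene is called wrongly assigned here to the extent of that signal, its level in D. melanogaster libraries in percent of its hybrid or its D. simulans mean, whichever was larger. This is not the part of hybrid reads that is wrongly placed, since hybrid libraries hold less D. melanogaster RNA. Markers of germline and follicle cells were present in all 4 libraries, among them osk, a maternal mRNA that specifies the posterior of the egg, and tj, a factor of somatic gonad cells. D. simulans identifiers carry no symbols. For 1997 of them (14.01%) the name of the D. melanogaster orthologue was obtained from a table of orthologous pairs of the study, and these are written by that name below.

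Over the D. simulans genome as a whole, genes that were lower in hybrid ovaries outnumbered those that were higher. Of 8207 genes tested, 425 were higher and 800 lower at an edgeR adjusted p-value below 0.05 and a change of at least 2-fold, which together made 14.9% of the tested genes, 5.18% higher and 9.75% lower. The median fold change was 3.76 among the higher and 3.27 among the lower genes. A gene could enter the test through the group in which it was high, so sizes are not compared between the directions. Changes of at least 10-fold were estimated for 90 higher and 67 lower genes, and for 80 and 39 when a group with at most 3 counts in each library was set to that floor and the fold taken as a lower bound. Called genes of both directions were of low level in D. simulans ovaries, where the median of all tested genes was 44.0 TPM. Higher genes had a median of 6.53 TPM in hybrids and 1.01 TPM in D. simulans. Lower genes had a median of 3.59 TPM in hybrids and 10.9 TPM in D. simulans. TPM is abundance per transcript length, rescaled to the same total over the D. simulans genes of each library.

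Relative to the other D. simulans genes of the same library, most genes lay within 2-fold of the parent. The scaling used assumes that most genes do not change, so a centre near 0 was set in advance. The log2 fold change of hybrid over D. simulans had a median of 0.02 with quartiles of -0.39 and 0.29, and 83.2% of the tested genes lay within 2-fold. Without a minimum fold, 1832 genes were higher and 2039 lower, or 47.2% of the tested genes, with a biological coefficient of variation of 9.51% between replicates. All 1225 called genes had both hybrid libraries beyond both D. simulans libraries, a separation seen in 77.3% of all tested genes. With the genes ranked by their mean TPM over the 4 libraries, 347 increases and 535 decreases lay in the lowest quartile, and 13 and 89 in the highest.

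**Figure D1:**
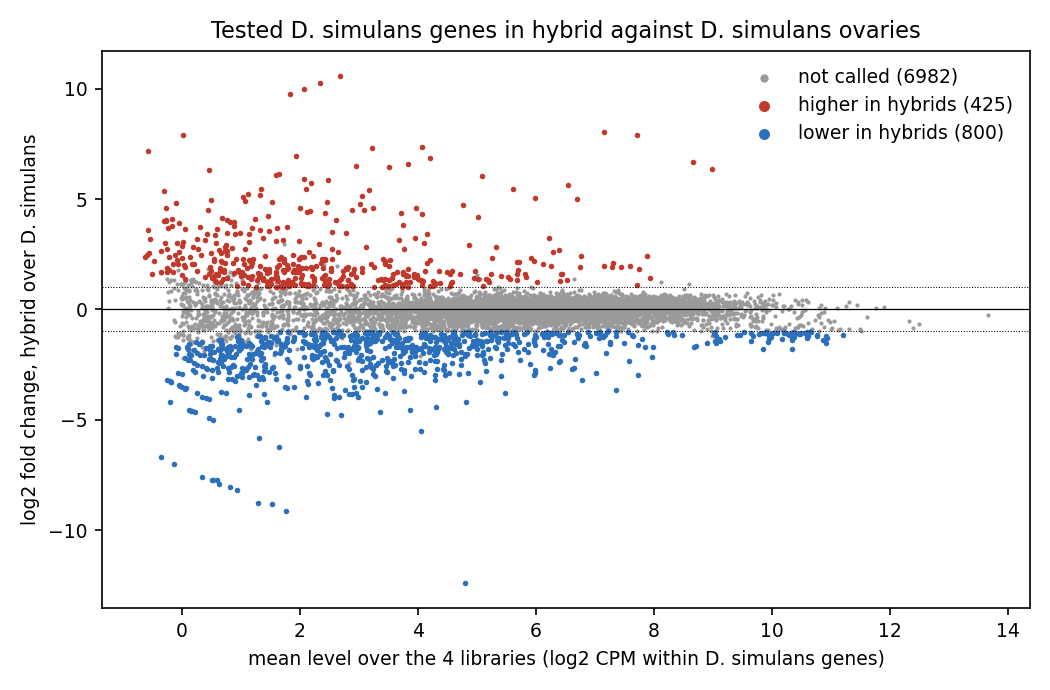
Each point is 1 of the 8207 tested D. simulans genes, with its mean level over the 4 libraries on the horizontal axis (log2 CPM within D. simulans genes) and its log2 fold change of hybrid over D. simulans on the vertical axis. Dotted lines mark 2-fold, red points the 425 genes called higher in hybrids and blue points the 800 called lower. Among the most abundant genes a band of blue points lies just under the lower dotted line.

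The balance of higher and lower genes depended on what a library was scaled to. The values above use TMM factors, which assume that most genes do not change, computed within the D. simulans genes, so that the loss of 1 of the 2 doses in hybrids does not appear as a change. Scaled instead to the totals of whole libraries over both species, 226 genes were higher and 2622 lower, the share of higher genes among the calls fell to 7.94%, against 34.7% with the scaling within D. simulans genes, and the centre of all genes moved to a median log2 fold change of -0.73. TMM factors computed over both species gave 285 higher and 1589 lower genes, a share of 15.2% and a median of -0.44. When the hybrid totals were halved, so that 0 stands for the level of 1 dose, the calls came out even, with 590 higher and 587 lower genes, a share of 50.1% and a median of 0.28. Totals of the D. simulans genes without TMM gave 487 and 690 genes, 41.4% and 0.14.

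The other scalings shift all genes by nearly the same amount, and calls were gained or lost at the threshold. All 800 lower genes were also called lower with whole-library totals, and 584 of them with halved hybrid totals. Of the 425 higher genes, 226 were also called higher with whole-library totals and all 425 with halved hybrid totals. No gene called in one direction was called in the other under any of the scalings. Fold changes below are relative to the D. simulans genes of the same library unless another scaling is named.

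**Figure D2:**
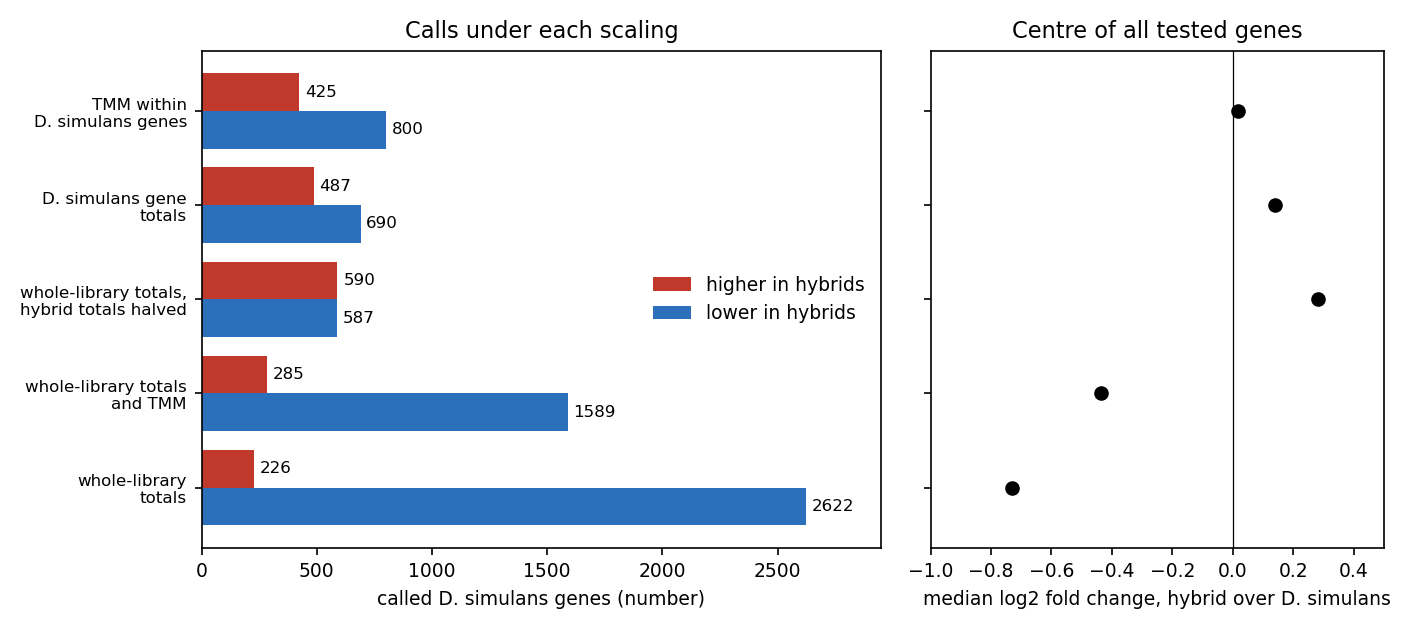
Left, number of D. simulans genes called higher (red) and lower (blue) in hybrids under each of 5 scalings, from TMM within D. simulans genes at the top to whole-library totals at the bottom. Right, the median log2 fold change of hybrid over D. simulans over all tested genes under the same scalings, from 0.28 with halved hybrid totals to -0.73 with whole-library totals.

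Transcription factors of follicle cells were lower in hybrid ovaries as a group. Of 8 listed factors with a name, 6 fell and none rose (75% called, beside 14.9% of all tested genes). Their median log2 fold change was -1.72, beside 0.02 for all tested genes. The normalised read count of tj, a Maf factor that marks somatic gonad cells throughout oogenesis, was 14.6 and 14.9 CPM in hybrids, against 104 and 114 CPM in D. simulans. By log2 fold change it stood at -2.89 (SE 0.10, adjusted p-value of edgeR 6.6e-06), with no overlap between the groups. In these whole-ovary libraries fewer cells of a type and less RNA per cell cannot be told apart.

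The other factors of the list act at different steps of follicle cell development. br, a zinc-finger factor induced by ecdysone that patterns the dorsal appendages, was at 5.34 and 8.93 CPM in hybrids, against 32.1 and 43.4 CPM in D. simulans. ct, a homeodomain factor of early follicle cells, was at 4.75 and 5.55 CPM in hybrids, against 25.4 and 29.1 CPM in D. simulans, and the pair had log2 fold changes of -2.42 and -2.41. mirr, which specifies dorsal anterior follicle cells, bowl, a zinc-finger factor, and peb, a target of Notch, fell by 1.80, 1.64 and 1.10 (edgeR adjusted p-values 0.00131, 0.000567 and 0.000535). With halved hybrid totals peb was at -0.84 and no longer passed the 2-fold limit, and without hybrid replicate 1 it was at -0.96. jim was at -0.89 (edgeR adjusted p-value 0.00131) and zfh1, which is also used in other somatic cells, at 0.10 (0.359).

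Genes that answer or limit the signals to follicle cells were divided. Of 11 EGFR pathway genes tested, 2 fell, 1 rose and 8 were not called (27.3% called, beside 14.9% of all tested genes). Their median of -0.12 turned to 0.14 with halved hybrid totals. Egfr, the receptor, was at 9.23 and 13.7 CPM in hybrids, against 55.7 and 55.2 CPM in D. simulans (log2 fold change of hybrid over D. simulans -2.27, SE 0.17, edgeR adjusted p-value 0.00013). kek1, an inhibitor of the receptor that is itself induced by the pathway, was at 2.44 and 1.90 CPM in hybrids and 18.5 and 20.1 CPM in D. simulans (-3.12, SE 0.22, edgeR adjusted p-value 9.8e-05). vn, a neuregulin-like ligand, rose to 7.33 and 6.50 CPM in hybrids, against 1.55 and 0.988 CPM in D. simulans, and its wrongly assigned share was 20.1%. The ligand spi and the kinases Dsor1 and rl, which carry the signal inside the cell, stood at -0.11, 0.02 and -0.12.

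Of 10 JAK-STAT and BMP genes, 2 fell and none rose (20% called, beside 14.9% of all tested genes). Both are negative regulators of JAK-STAT. Socs36E, the feedback inhibitor, was at 2.86 and 3.45 CPM in hybrids, against 16.8 and 24.1 CPM in D. simulans (-2.70, SE 0.25, edgeR adjusted p-value 0.000287). et, a shortened relative of the receptor, was at 1.03 and 0.217 CPM in hybrids and 8.35 and 11.8 CPM in D. simulans (-3.99, SE 0.51, 0.000996). The receptor dome and the kinase hop were at -0.02 and 0.23. Among 3 dorsoventral genes, ndl fell. It encodes a protease that follicle cells place in the egg covering, and it was at 27.1 and 30.9 CPM in hybrids, against 138 and 98.3 CPM in D. simulans (-2.02, SE 0.17, edgeR adjusted p-value 0.000199).

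Of 6 ecdysone synthesis genes, 5 fell (83.3% called, beside 14.9% of all tested genes), with a median log2 fold change of -2.68. They encode successive enzymes of the pathway and were of low level in both groups. The hybrid libraries held 7.3 and 2.1 counts of sro, 7.5 and 1.2 of sad, 4.9 and 0 of dib, and 4 and 6 of shd. sro, a short-chain dehydrogenase, was at 0.755 and 0.229 CPM in hybrids, against 4.36 and 6.77 CPM in D. simulans (-3.54, SE 0.54, edgeR adjusted p-value 0.00201). The cytochrome P450 genes sad, dib, shd and spo were at -3.14, -2.76, -2.60 and -1.17 (edgeR adjusted p-values 0.00504, 0.0293, 0.0032 and 0.0108). Of these, sad had a wrongly assigned share of 20.5%, and dib was lost without hybrid replicate 2 (-1.81, edgeR adjusted p-value 0.128) and without D. simulans replicate 2 (-2.36, 0.151). spo had 34 and 38 counts in hybrids and 119 and 155 in D. simulans, and it was lost without hybrid replicate 1 (-1.05, 0.0619) and with halved hybrid totals (-0.91). dare, an electron-transfer partner of mitochondrial P450 enzymes that is used in many cells, was at -0.11 (0.495). The direction of the follicle factor and ecdysone medians was the same under every scaling tried. With at least 10 counts required in every library, only 2 of the 6 ecdysone genes were tested. Of these, 1 was lower, and the median was -0.65. Tested against a 1.5-fold change, 3 of the 6 were called lower.

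**Figure D3:**
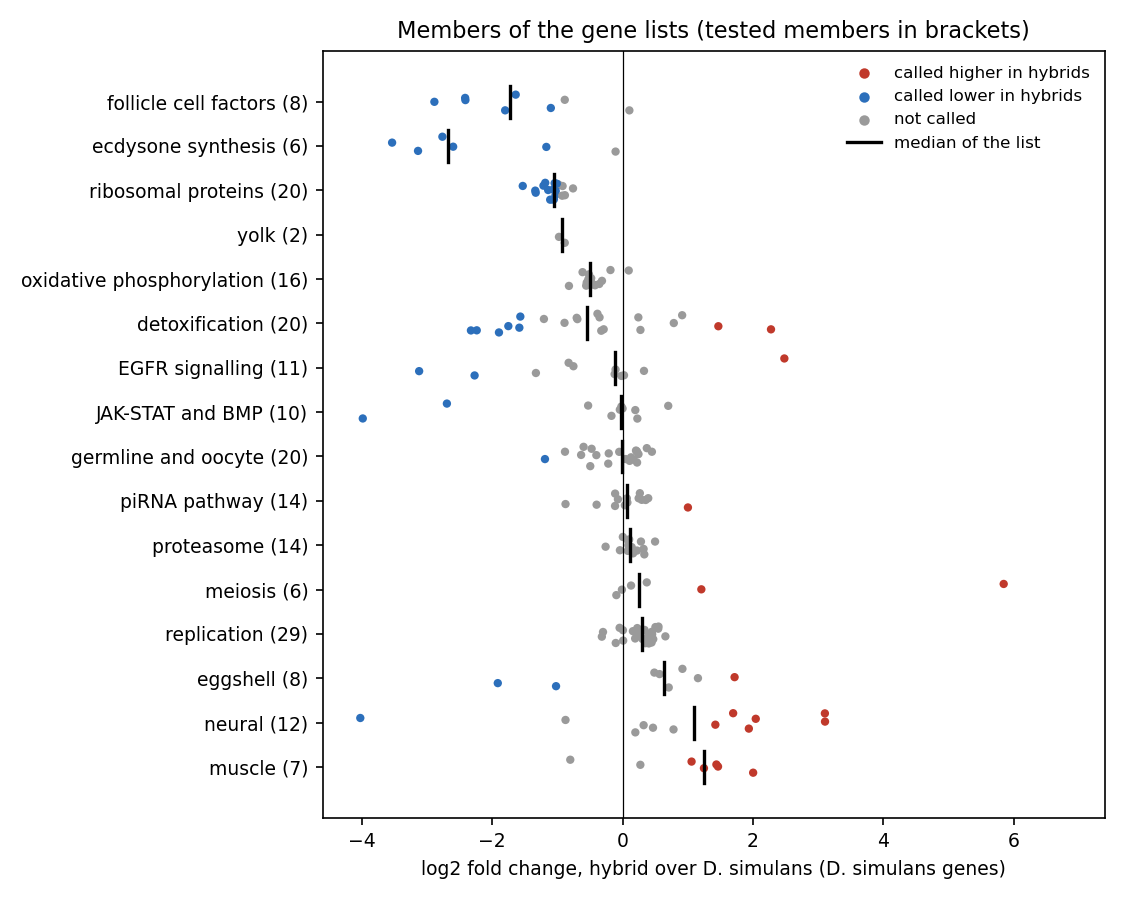
Log2 fold change of hybrid over D. simulans (horizontal axis) for the tested members of 16 gene lists (rows, number of tested members in brackets). Red points were called higher in hybrids, blue points lower, grey points neither, and black bars are list medians. The follicle factor, ecdysone and ribosomal medians lie at -1.72, -2.68 and -1.05, and the neural and muscle medians at 1.10 and 1.25.

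Several eggshell genes varied widely between replicates, in D. simulans as well as in hybrids, and most of the list was not called. The chorion gene Cp36 was at 248 and 707 CPM in hybrids, against 203 and 301 CPM in D. simulans (0.92 on the log2 scale, SE 0.42, edgeR adjusted p-value 0.111). Cp38 was at 242 and 833 CPM in hybrids and at 223 and 258 CPM in D. simulans (1.16, SE 0.47, 0.0777), with a wrongly assigned share of 70.7%. Replicate 2 was the higher in all 4 chorion genes listed, in hybrids and in D. simulans alike, and none was called. Cp7Fc was at 42.8 and 60.5 CPM in hybrids, against 23.9 and 44.8 CPM in D. simulans. Without hybrid replicate 1, Cp38, Cp36 and Cp7Fb were called higher (1.80, 1.49 and 1.11, edgeR adjusted p-values 0.000166, 0.00204 and 0.0283). Without D. simulans replicate 2, Cp7Fb and Cp7Fc were called (1.29 and 1.11, 0.0254 and 0.0087). Halved hybrid totals also gave calls for Cp38 and Cp36 (1.39 and 1.16), and totals of the D. simulans genes for Cp38 (1.27). Of 8 eggshell genes, Femcoat rose and Vm26Ac and fs(1)N fell (37.5% called, beside 14.9% of all tested genes). The list median of 0.64 turned to -0.10 with whole-library totals. It ran from 0.08 without hybrid replicate 2 to 1.21 without D. simulans replicate 2.

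The calls of Femcoat and Vm26Ac rested on single libraries. Femcoat, an eggshell protein gene, was at 8.64 and 31.9 CPM in hybrids, against 8.27 and 4.29 CPM in D. simulans (edgeR adjusted p-value 0.0425). It was at 0.48 (0.432) without hybrid replicate 2 and at 1.28 (0.171) without D. simulans replicate 2. The vitelline membrane gene Vm26Ac was at 13.5 and 8.14 CPM in hybrids and 67.3 and 15.98 CPM in D. simulans (-1.92, edgeR adjusted p-value 0.0395). It was at -0.59 (0.146) without D. simulans replicate 1, and its call was also lost without hybrid replicate 1 (0.0627) and without hybrid replicate 2 (0.143). fs(1)N, which is needed for eggshell integrity, was even between replicates, at 205 and 217 CPM in hybrids and at 414 and 443 CPM in D. simulans (-1.02, SE 0.09, edgeR adjusted p-value 0.000189), but it was at -0.97 without hybrid replicate 1 and without D. simulans replicate 2, just short of 2-fold. The yolk protein gene Yp3 and yl, the receptor by which the oocyte takes up yolk, were at -0.98 and -0.89 (edgeR adjusted p-values 0.00187 and 0.00103), short of 2-fold. With whole-library totals both were called lower (-1.72 and -1.63).

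Germline genes as a group were centred on the rest of the D. simulans genome. Of 20 germline and oocyte genes, 1 fell and none rose (5% called, beside 14.9% of all tested genes), with a median of 0.00. Without a minimum fold, 8 of the 20 had an edgeR adjusted p-value below 0.05 on the lower side and 2 on the higher side. orb, a CPEB protein that controls translation of maternal mRNA, fell to 337 and 310.0 CPM in hybrids, against 750.1 and 728 CPM in D. simulans (-1.19, SE 0.09, edgeR adjusted p-value 0.000113), and stood at -0.93 with halved hybrid totals. osk was at 1454 and 1457 CPM in hybrids and 2201 and 2206 CPM in D. simulans (-0.60, SE 0.08, 0.00122), below the 2-fold limit although the groups did not overlap. bam, which starts cyst differentiation, was at -0.64 (0.00115) and vls, a pole plasm factor, at -0.88 (0.000666). With whole-library totals 7 of the 20 were called lower, and their median was -0.74 where that of all genes was -0.73.

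Most of the piRNA pathway genes that carry a name here had D. simulans alleles within 2-fold of the parental level. Other members of the pathway, such as aub and piwi, are not among them and were not analysed here. Of 14 tested, 1 rose and none fell (7.14% called, beside 14.9% of all tested genes). Their median was 0.07, and -0.67 with whole-library totals. rhi, the HP1 homologue that licenses transcription of piRNA clusters, was at 83.7 and 95.2 CPM in hybrids, against 97.9 and 95.95 CPM in D. simulans (-0.12, SE 0.09, edgeR adjusted p-value 0.3). cuff, its partner, was at 2.88 and 3.80 CPM in hybrids and 2.62 and 4.50 CPM in D. simulans (-0.11, SE 0.38, 0.819). zuc, the nuclease of piRNA biogenesis, was at -0.88 (SE 0.17, 0.00552). The call of Hen1, the methylase of piRNA ends, was at the threshold (1.003 on the log2 scale, edgeR adjusted p-value 0.00353), with 19.8% wrongly assigned. It was lost without hybrid replicate 1 (0.92), without D. simulans replicate 1 (0.86) and with the expected D. melanogaster reads taken off (0.88). DESeq2 and RLE size factors both put Hen1 at 0.99, short of 2-fold, and whole-library totals put it at 0.27.

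Among 6 tested meiosis genes 2 rose (33.3% called, beside 14.9% of all tested genes). narya, which is needed for meiotic double-strand breaks, was nearly absent from D. simulans ovaries, with 160 and 80 counts in hybrids and 1 and 6 in D. simulans. It was higher by 5.85 on the log2 scale (SE 0.55, edgeR adjusted p-value 0.000297), with a wrongly assigned share of 4.40%. hdm was at 5.50 and 4.17 CPM in hybrids, against 2.01 and 2.11 CPM in D. simulans (1.21, SE 0.33, 0.0204), and its edgeR adjusted p-value lay between 0.0582 and 0.16 when a library was left out. Of 10 centromere and nuclear pore genes, only Nnf1a, a kinetochore protein gene, was called (-1.49, SE 0.39, edgeR adjusted p-value 0.0173), and it was lost without hybrid replicate 2 (-1.10, 0.124) and without D. simulans replicate 2 (-1.49, 0.0605). The kinetochore genes Spc105R and rod and the centromeric histone cid were at 0.74, 0.62 and 0.44. None of 29 replication and cell division genes was called, but 17 of them had an adjusted p-value below 0.05 on the higher side and 1 on the lower side, with a median of 0.30. That median was -0.43 with whole-library totals.

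**Figure D4:**
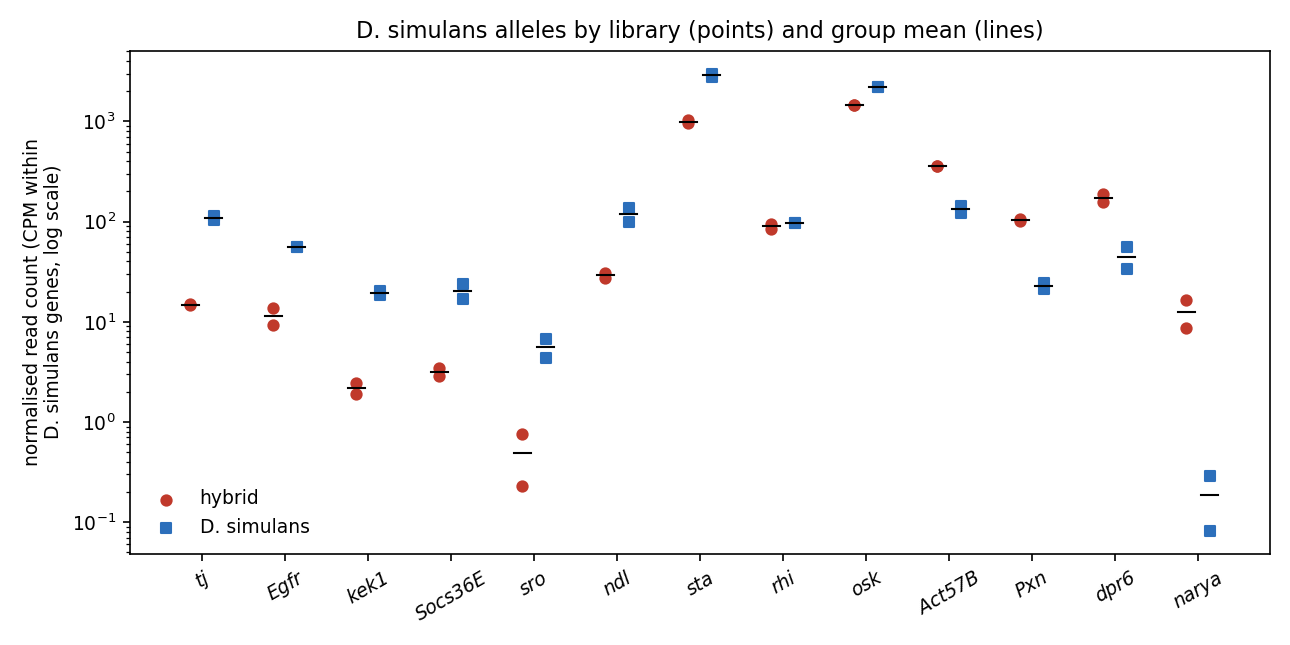
Normalised read count of 13 D. simulans alleles (CPM within D. simulans genes, log scale) in each hybrid library (red circles) and each D. simulans library (blue squares), with black lines for group means. The groups are apart for tj, Egfr, kek1, Socs36E, sro, ndl and sta, which are lower in hybrids, and for Act57B, Pxn, dpr6 and narya, which are higher, while the values of rhi lie between 83.7 and 97.9 in all 4 libraries.

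Ribosomal protein genes, which make up much of the most abundant mRNA of the ovary, were lower in hybrids by an even margin. Of 20 tested, 15 fell (75% called, beside 14.9% of all tested genes). The remaining 5 had an edgeR adjusted p-value below 0.05 on the same side. Log2 fold changes of the 20 ran from -1.53 to -0.76, with a median of -1.05. Their summed level was 47180 and 46800 TPM in hybrids, against 72750 and 83730 TPM in D. simulans. The largest decrease was that of sta, a small-subunit protein gene, at 1023 and 966 CPM in hybrids, against 2748 and 3002 CPM in D. simulans (-1.53, SE 0.09, edgeR adjusted p-value 6.1e-05). RpS20 was at 584 and 537 CPM in hybrids and 1289 and 1536 CPM in D. simulans (-1.33, SE 0.11, 0.000187). RpS14b was at 121 and 131 CPM in hybrids and 281 and 357 CPM in D. simulans (-1.34, SE 0.12, 0.000266).

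The ribosomal values lie close to the threshold, and their calls moved with the scaling. The median was -0.79 with halved hybrid totals, and 3 of 20 were called. With whole-library totals all 20 were called lower, with a median of -1.79 beside -0.73 for all tested genes. Totals of D. simulans genes without TMM gave 6 calls, and leaving out D. simulans replicate 2 also gave 6. Nuclear genes of oxidative phosphorylation, which build the respiratory chain, had a smaller shift, with 13 of 16 at an adjusted p-value below 0.05 on the lower side, none called and a median of -0.49. With whole-library totals 14 of the 16 were called lower, with a median of -1.23. ATPsynbeta, the catalytic subunit of the ATP synthase, was at 979.7 and 980.7 CPM in hybrids, against 1660 and 1807 CPM in D. simulans (-0.82, SE 0.09, edgeR adjusted p-value 0.000449). Proteasome genes were not called in any of 14 cases, with a median of 0.12. Of 4 chaperone genes the mitochondrial Hsp60A fell (-1.18, SE 0.11, 0.00025), and it was at -0.91 with halved hybrid totals, short of 2-fold.

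Listed genes of muscle and of nerve cells were more often higher than lower in hybrids. Of 7 muscle genes 5 rose (71.4% called, beside 14.9% of all tested genes), with a median of 1.25. Act57B, a muscle actin, was at 363 and 358 CPM in hybrids, against 121.5 and 143.5 CPM in D. simulans (1.44, SE 0.10, edgeR adjusted p-value 9.7e-05). Mlp84B, a LIM protein of the sarcomere, was at 25.5 and 22.4 CPM in hybrids and 8.14 and 9.17 CPM in D. simulans (1.47, SE 0.16, 0.000562). RyR, the calcium release channel, kon, a transmembrane protein of muscle attachment, and tn, a TRIM protein of the costamere, were at 1.25, 2.00 and 1.06, whereas tmod, which caps actin filaments in many cells, was at -0.80 (0.000943).

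The summed level of the 7 muscle genes was 515 and 509 TPM in hybrids, against 197 and 214 TPM in D. simulans, and none of them was at 0 in any library. The ovary has a muscular sheath of its own, and the part of muscle tissue in these values was not tested. Without D. simulans replicate 1 RyR was at 0.96 and tn at 0.84, which left 3 of the 7 called, and kon lost its call without hybrid replicate 2 (edgeR adjusted p-value 0.0554). With whole-library totals the median was 0.51 and only kon was called higher, while tmod was called lower.

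Of 12 tested neural genes 6 rose and 1 fell (58.3% called, beside 14.9% of all tested genes), with a median of 1.10. The summed level of the 13 listed was 203 and 214 TPM in hybrids, against 86.4 and 82.6 TPM in D. simulans. dpr6, an immunoglobulin-domain surface protein of synaptic partners, was at 157 and 188 CPM in hybrids, against 33.3 and 55.3 CPM in D. simulans (1.94, SE 0.21, edgeR adjusted p-value 0.000513). The potassium channel gene SK was at 19.02 and 18.2 CPM in hybrids and 4.59 and 4.46 CPM in D. simulans (2.04, SE 0.19, 0.000254). beat-IIIc, an axon guidance gene, was at 7.27 and 8.62 CPM in hybrids and 0.957 and 0.869 CPM in D. simulans (3.11, SE 0.34, 0.000494). slo and nAChRbeta3, both channel genes, were lost whenever a library was left out, with adjusted p-values from 0.0523 to 0.199. The increase of Nlg2 stands beside a wrongly assigned share of 156.5%, since the D. melanogaster libraries held more of its signal than the hybrids. DIP-iota fell to 1 count in each hybrid library, against 26 and 34 in D. simulans, at least 5.80-fold lower (0.00249). With the expected D. melanogaster reads taken off, 5 of 11 were higher and the median was 0.49. Leaving out any library left 4 higher, and whole-library totals gave 4 higher and 2 lower with a median of 0.04. None of the neural genes tested was at 0 in any library, and the part of nerve tissue in these values was not tested.

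Lists of testis, immune and detoxification genes had no common direction, whereas all 3 fat body genes had estimates on the lower side. Of the tested testis, immune, fat body and detoxification genes, 50%, 40%, 66.7% and 40% were called, beside 14.9% of all tested genes. The 3 fat body genes summed to 4.45 and 4.67 TPM in hybrids, against 12.6 and 17.2 TPM in D. simulans, and apolpp (-1.17) and Lsd-1 (-2.20) fell, Lsd-1 with 5.33% wrongly assigned. With halved hybrid totals apolpp was at -0.91 and lost its call. The 5 testis genes summed to 72.3 and 76.7 TPM in hybrids, against 52.8 and 46.1 TPM in D. simulans. The list had 1 higher gene, tbrd-1 (2.80), and 1 lower, r-cup (-2.24), among 4 tested, and S-Lap7 was at 0 in both hybrid libraries. The call of r-cup was lost without hybrid replicate 1 (0.153) and without either D. simulans replicate (0.0691 and 0.0932). Of 5 immune genes tested, with a median of 0.37, egr rose (1.55) with 28.5% wrongly assigned and PGRP-LB fell (-2.08), and egr lost its call without hybrid replicate 2 (0.0894). Drs, an antimicrobial peptide gene, had 121 counts in hybrid replicate 1 and 0 in replicate 2, against 29 and 146 in D. simulans, and was not called. Of 20 detoxification genes tested 2 rose and 6 fell, with a median of -0.54, while the summed level of the 21 listed was 1921 and 1806 TPM in hybrids, against 1368 and 1291 TPM in D. simulans. The esterase genes alpha-Est7, alpha-Est9 and alpha-Est10 were among the lower (-1.75, -1.90 and -1.57) and alpha-Est8, a member of the same cluster, among the higher (2.28). alpha-Est8 lost its call without hybrid replicate 1 (1.79, edgeR adjusted p-value 0.0683), and Cyp4g15 (1.47), the other higher gene, without either hybrid replicate (0.112 and 0.0515) and without D. simulans replicate 2 (0.0818).

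The largest changes among abundant and well assigned called genes with a symbol are given next. The limits were a mean level over the 4 libraries at or above 54.0 CPM, the median of tested genes, and at most 5% wrongly assigned counts. A gene could pass the level limit through the group in which it was high, so the sizes of decreases and increases are not compared. After tj the largest decrease was that of kar, a transporter of the monocarboxylate family, with 266 and 251 counts in hybrids, against 1833 and 3970 in D. simulans (-2.65, SE 0.13, edgeR adjusted p-value 2.8e-05). The protein kinase gene CaMKI was at 42.7 and 25.7 CPM in hybrids and 169.7 and 160.0 CPM in D. simulans (-2.27, SE 0.19, 0.000207). LanA, the laminin chain of basement membranes, was at 53.5 and 63.1 CPM in hybrids and 194 and 267 CPM in D. simulans (-1.99, SE 0.16, 0.000181). These were followed by the methyltransferase gene Bhmt (-1.92), the peptidase gene SP1029 (-1.81), snz, a sorting nexin (-1.48), Sf3b3, a subunit of the splicing factor that reads the branch point (-1.44), and Cals, the calsyntenin gene (-1.44). The uncharacterised genes CG10702 and CG11089 were at -1.57 and -1.16, and CG11089 was at -0.90 with halved hybrid totals.

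Only 5 named genes with a symbol met the same conditions on the higher side, Act57B and dpr6 of the lists above and 3 more. Pxn, the peroxidasin that cross-links basement membrane collagen, was at 102 and 107 CPM in hybrids, against 24.5 and 21.2 CPM in D. simulans (2.20, SE 0.10, edgeR adjusted p-value 2.0e-05). ebd2 was at 129 and 140 CPM in hybrids and 51.2 and 53.7 CPM in D. simulans (1.36, SE 0.08, 6.2e-05). Alp4, an alkaline phosphatase gene, was at 285.0 and 289.3 CPM in hybrids and 120 and 145 CPM in D. simulans (1.12, SE 0.10, 0.000261), and it was at 0.96 without D. simulans replicate 1. With whole-library totals Pxn was the only one of Pxn, ebd2 and Alp4 that passed. Genes without a name reached further in both directions. LOC120285374 was at 272 and 305 CPM in hybrids, against 1.27 and 1.01 CPM in D. simulans, and LOC6726258 at 428 and 416 CPM in hybrids, against 1.27 and 2.03 CPM in D. simulans. LOC6740171 was at 26.2 and 22.2 CPM in hybrids, against 264 and 339 CPM in D. simulans, and LOC6739830 at 25.5 and 17.7 CPM in hybrids, against 195 and 198 CPM in D. simulans.

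Both alleles of a named pair could be followed in the same hybrid libraries. The D. melanogaster allele was compared with D. melanogaster Hmr2 ovaries in a separate fit, so both comparisons share the hybrid libraries and have different parents. Among the 1902 pairs tested in both fits, 2.42% of the D. melanogaster alleles were higher and 12.1% lower. Of the pairs whose D. simulans allele fell, 116 of 183 (63.4%) also had a lower D. melanogaster allele, which is 50.4% of the 230 lower D. melanogaster alleles. Of the pairs whose D. simulans allele rose, 27 of 69 (39.1%, or 58.7% of the 46 higher D. melanogaster alleles) had a higher D. melanogaster allele, 33 were uncalled and 9 were lower. The difference between the alleles itself was not tested.

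For some genes both alleles had like values. tj was at -2.89 for the D. simulans allele and -2.88 for the D. melanogaster allele (SE 0.10 and 0.17), sro at -3.54 and -3.51, kek1 at -3.12 and -2.77, and Act57B at 1.44 and 1.55. For others the alleles lay apart. rhi was at -0.12 for the D. simulans allele and at -3.47 (SE 0.59, edgeR adjusted p-value 0.00863) for the D. melanogaster allele, of which the hybrid libraries held 7 and 59 counts. Cp36 was at 0.92 and -2.28, and GstD1, a glutathione transferase gene, at 0.27 and -2.68. dpr6 was called in opposite directions, at 1.94 for the D. simulans allele and -2.41 for the D. melanogaster allele. In hybrids the D. melanogaster allele of dpr6 was at 11.2 and 15.2 CPM of its own genome, against 68.2 and 72.3 CPM in D. melanogaster. Socs36E fell in the D. simulans allele (-2.70), while its D. melanogaster allele was at -0.53 (SE 0.22, 0.112).

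**Figure D5:**
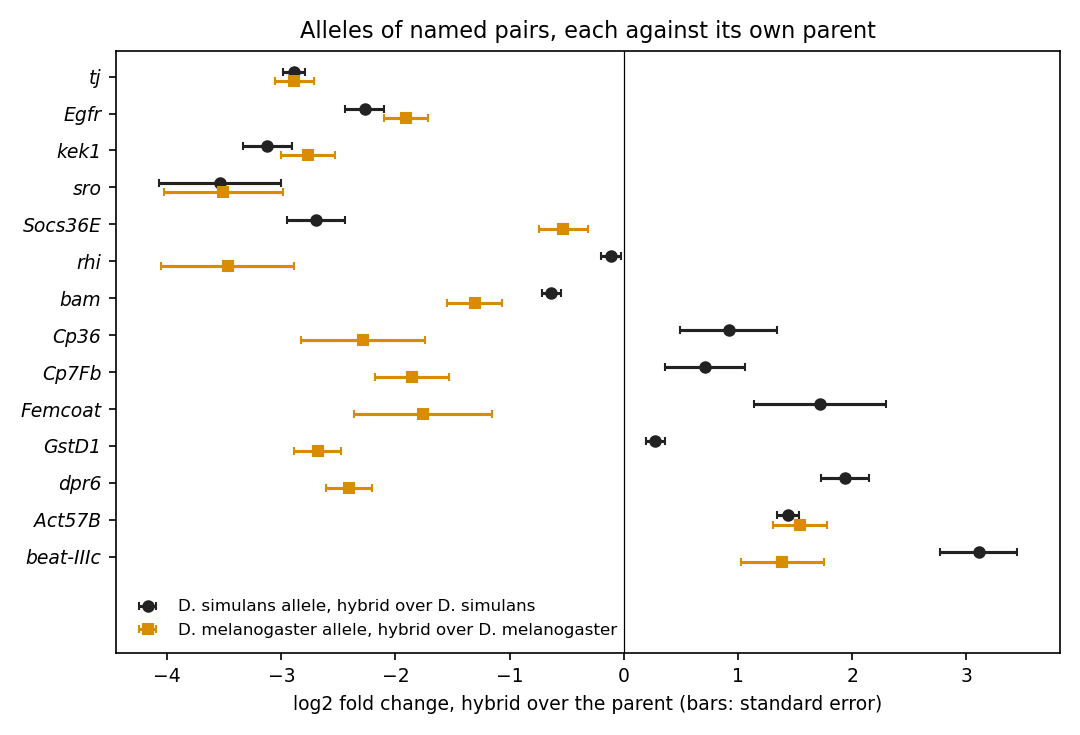
Log2 fold change of hybrid over the parent for 14 gene pairs (rows), for the D. simulans allele (black circles) and the D. melanogaster allele (orange squares), with bars for the standard error. The symbols nearly coincide for tj and sro, and lie far apart for rhi, Cp36, GstD1 and dpr6. The genes were chosen after their values were seen, to show both kinds.

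The D. simulans calls were spread over the chromosome arms, taken from the position of the D. melanogaster orthologue. Of 1964 named genes tested, 14.5% were called, and the arms X, 2L, 2R, 3L and 3R lay between 12.7% and 16%. Of 19 genes of the small chromosome 4, 5 fell and 1 rose (31.6% called), with a median of -0.38, and 13 had an adjusted p-value below 0.05 on the lower side. CaMKI and Cals of the genes above are among the 5, as is Asator, a kinase gene, at 10.4 and 11.3 CPM in hybrids, against 40.3 and 46.5 CPM in D. simulans (-1.998, SE 0.14, edgeR adjusted p-value 9.7e-05). On the X, 113 of 391 genes had an adjusted p-value below 0.05 on the lower side and 52 on the higher side, with a median of -0.09. On the autosomes the numbers were 400 and 353 of 1573, with a median of 0.02.

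A high wrongly assigned share was more frequent among the higher calls than among the lower. The share exceeded 5% for 123 of the 425 higher genes (28.9%), for 124 of the 800 lower genes (15.5%) and for 15.3% of the uncalled genes. In 33 higher and 4 lower genes the share exceeded 50%. The named higher genes with the largest shares were Nlg2, CG11686 (89.2%) and CG13101 (29.7%). CG11686 had 11 and 10 counts in hybrids, against 1 and 5 in D. simulans, and its call was lost whenever a library was left out (edgeR adjusted p-values from 0.057 to 0.102). With the 6894 genes of at most 5% wrongly assigned, 302 were higher and 676 lower, and with the expected D. melanogaster reads taken off the hybrid counts 399 were higher and 847 lower. Genes whose identifier has 9 digits, a class of 228 tested genes, held 62 higher calls (27.2% of the class) and 19 lower, and 22 of the 62 had at most 5% wrongly assigned.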

How the data were processed

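The authors assigned reads with kallisto 0.50.0 to RefSeq transcripts of the 2 species merged and summed protein-coding genes with tximport. The deposited estimated counts need not be whole and were rounded here. The deposited TPM span both species as the authors made them, and were rescaled here to 1000000 within the D. simulans genes, for levels only. No strand option is stated for kallisto, so overlapping genes can share reads. A further 6 columns of lengths name no sample and were not used.

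Names come from 1999 orthologous pairs held of the study's table, whose 6 counts per allele matched a row at 5 significant digits, once each way, for 1997. Hybrid and D. simulans libraries were compared with edgeR 4.0.16 in R 4.3.3 (quasi-likelihood test, two-sided, filterByExpr with a minimum of 10 counts, TMM within D. simulans genes, Benjamini-Hochberg over all tested genes). A call needed an adjusted p-value below 0.05 and a log2 fold change of at least 1. SE is the absolute log2 fold change divided by the square root of F. CPM are estimated counts per 1000000 after TMM. DESeq2 1.42.0, other scalings, filters, thresholds, a replicate block and leaving out libraries were alternatives. Figures were drawn with matplotlib 3.10.9 in Python 3.11.15.

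Named are up to 12 increases and 12 decreases with a symbol, 3 and 3 with a CG number and 2 and 2 identifiers, each the largest among called genes with separated groups, an average level of at least the median CPM and at most 5% wrongly assigned, plus members of the gene lists, the 3 named higher genes with the largest wrongly assigned share, rhi and cuff. The members, lists and rules were chosen with earlier results of these data known. GstD1, Cp36 and the other genes shown by both alleles, and Asator, were singled out after their values were seen. The study calls the 2 libraries of a group biological replicates, without saying which females or crosses were separate, so p-values measure the spread between these libraries. A chi-square comparison gave 7.51 per degree of freedom for the hybrid replicates and 18.5 for the D. simulans replicates, so none was a repeated library. The edgeR step was tested on simulated data.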

Additional observations from a re-analysis of the deposited data

Results flagged for a closer look

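Signal was found in data outside the comparison, the D. melanogaster libraries, on 98 D. simulans genes whose level was higher in both D. melanogaster libraries than in both D. simulans libraries, with more than 3 counts in each D. melanogaster library. Of these 98 genes 52 were tested, 41 were called higher in hybrids and 0 lower by edgeR.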

How the results depend on the processing

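With whole-library totals, 226 genes were higher and 2622 lower in hybrids (7.94% of the calls higher, median log2 fold change -0.73), and with TMM over both species 285 and 1589 (15.2%, -0.44). Halved hybrid totals gave a share of 50.1% and a median of 0.28, and totals of the D. simulans genes 41.4% and 0.14. Without a minimum fold, 1832 genes were higher and 2039 lower (47.3%), and against a 1.5-fold change with glmTreat the share was 29.8%. A minimum of 10 counts in each of the 4 libraries, a filter that removes genes low in either group, left 278 higher genes. The median was 0.01 with RLE size factors and with DESeq2, -0.04 without a filter and 0.00 with genes of at most 5% wrongly assigned. When each library was left out in turn, 297 to 381 genes were higher and 601 to 848 lower, the share ran from 29.5% to 38.8% and the median from 0.00 to 0.01. A group of 1 library was then assumed to vary like the other. DESeq2 called 361 and 712 genes, 1060 of them shared with edgeR. With the replicate number as a block, 429 genes were higher and 802 lower (34.8%, median 0.02), and no listed or named gene changed its call. Same-numbered libraries share only a number, and their deviations correlated at 0.04. Drs turned to -9.08 (edgeR adjusted p-value 0.00907) without hybrid replicate 1, which leaves the hybrid library with 0 counts, and was at 1.39 without D. simulans replicate 2, and the median of the 4 testis genes turned to 0.01 with halved hybrid totals. The immune median of 0.37 turned to -0.03 with the replicate block, to -0.82 without hybrid replicate 1 and to -0.14 without D. simulans replicate 1. The cause of these changes was not tested. In 15 refits of the 251 named or listed genes, Drs was the only one called in the direction opposite to its original estimate of 0.37.

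With 2 libraries a group there was no test for an outlying library. At 3 counts the floor was 0.325 and 0.335 CPM in hybrids, against 0.237 and 0.138 CPM in D. simulans, so low genes are measured less well in hybrids. Only 14.01% of the D. simulans genes carry a name here, and the list counts cover those alone.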

Other observations

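Outside the limits on level, named genes with changes of more than 10-fold were chosen here after their values were seen. sosie was at 1.03 and 0.217 CPM in hybrids, against 21.5 and 36.4 CPM in D. simulans (-5.51 on the log2 scale, SE 0.48, edgeR adjusted p-value 0.000226). On the higher side, CG10063 was at 97.3 and 102 CPM in hybrids, against 1.64 and 2.61 CPM in D. simulans (5.48, SE 0.16, edgeR adjusted p-value 4.0e-06), with 0.139% wrongly assigned. stan, a cadherin of planar cell polarity, had 39.8 and 68.3 counts in hybrids, against 1 and 4 in D. simulans (5.17, SE 0.57, edgeR adjusted p-value 0.000562). 2 of these genes are known for the testis of D. melanogaster, blanks, a protein that binds double-stranded RNA, and Taf12L, a testis relative of a general transcription factor subunit. blanks had 47 and 63 counts in hybrids, against 2 and 2 in D. simulans, at least 23.7-fold higher, and Taf12L 39.8 and 54 counts in hybrids, against 3 and 1 in D. simulans, at least 20.2-fold higher. On the D. simulans genes blanks, Taf12L and stan the D. melanogaster libraries had 0 wrongly assigned counts. This gives no level for the D. melanogaster alleles of these genes.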
